A study of Mus musculus with 32 samples.

Results

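Gabra2, Gabra3, Gabra6, Gabrb1, Gabrb2, Gabrg1 and Gabrd, 7 genes that encode subunits of the GABA-A receptor, were followed through the blood and the cerebellum of mice from 2 genetic models. A probe set was taken for a gene when the platform's annotation gave that gene as its only symbol, and where a gene had several, the one with the highest mean log2 intensity over all 32 arrays was used. All 7 genes were found, among 19938 genes that had such a probe set. The tested mice were 5 Fmr1-KO mice on a C57BL/6 congenic background, which carry a targeted Fmr1 gene, and 3 Tsc2+/- mice on a mixed 129/SvJae-C57BL/6J background, which keep 1 intact copy of Tsc2 because loss of both copies is lethal in the embryo. They were set against 5 WT and 3 WT mice of their own experiments. Each mouse, killed at 8 to 10 weeks of age, gave 1 blood array and 1 cerebellum array. The deposited labels describe every mouse as female and the methods describe all as male. Over the 16 cerebellum arrays the intensity of Xist was 44.5 to 106 and that of the Y-linked gene Kdm5d 536 to 755. Over the 16 blood arrays Xist was 17.3 to 62.6 and Kdm5d 265 to 852. By these 2 genes the arrays read as male, as the methods describe.

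GABA-A receptors are chloride channels that open when they bind GABA, the main inhibitory transmitter of the adult brain. Each receptor is a ring of subunits, usually built from alpha and beta subunits together with a gamma or delta subunit, and the mixture sets where the receptor sits and how it responds. In the cerebellum the alpha 6 subunit (Gabra6) is a hallmark of granule cells, where it joins with the delta subunit (Gabrd) in receptors outside the synapse that carry a steady inhibitory current. Beta 2 (Gabrb2) is a common partner of these subunits. Alpha 2 (Gabra2), alpha 3 (Gabra3), beta 1 (Gabrb1) and gamma 1 (Gabrg1) are better known from other brain regions, and alpha 2 and gamma 1 are also found in Bergmann glia, the astrocytes of the cerebellar cortex. The genes lie in clusters in the genome, with Gabra2, Gabrb1 and Gabrg1 on mouse chromosome 5 and Gabra6 and Gabrb2 on chromosome 11, while Gabra3 lies on the X chromosome and Gabrd on chromosome 4.

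RefSeq start sites on build GRCm38.p6 were at hand for 6 of the 7 genes, in 10 windows that run from 250 bases before to 50 bases after a start. Printed here are 3 of them, that of the granule cell gene Gabra6, that of Gabra2, the subunit that differed most between the experiments, and that of the X-linked Gabra3. Capitals mark the TATA box letters TATAAA and the GC box letters GGGCGG, read on both strands, so that TTTATA and CCGCCC are the same motifs on the opposite strand. No marked stretches overlap. All 3 windows are written in the direction of transcription, on the minus strand. They are chr11:42321023-42321322 for Gabra6, chr5:71095800-71096099 for Gabra2 and chrX:72656870-72657169 for Gabra3.
Gabra6: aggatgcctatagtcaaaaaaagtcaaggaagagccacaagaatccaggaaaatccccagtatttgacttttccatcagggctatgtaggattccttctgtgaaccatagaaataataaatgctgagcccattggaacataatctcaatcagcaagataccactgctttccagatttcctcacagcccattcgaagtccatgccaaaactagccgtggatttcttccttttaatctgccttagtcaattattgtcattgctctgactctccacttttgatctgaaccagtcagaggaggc
Gabra2: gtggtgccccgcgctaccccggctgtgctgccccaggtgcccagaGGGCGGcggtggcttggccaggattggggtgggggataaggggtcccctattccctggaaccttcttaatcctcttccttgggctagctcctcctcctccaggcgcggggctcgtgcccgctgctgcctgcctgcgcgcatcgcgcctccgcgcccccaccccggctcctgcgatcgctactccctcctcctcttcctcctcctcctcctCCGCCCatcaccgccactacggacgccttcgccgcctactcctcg
Gabra3: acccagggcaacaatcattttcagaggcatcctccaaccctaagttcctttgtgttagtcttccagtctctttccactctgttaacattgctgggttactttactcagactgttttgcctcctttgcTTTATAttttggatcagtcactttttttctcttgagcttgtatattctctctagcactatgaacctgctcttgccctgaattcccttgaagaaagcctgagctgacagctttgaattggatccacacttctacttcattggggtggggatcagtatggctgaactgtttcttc
The Gabra2 window held 70.0% G and C and 2 GC boxes, against 42.0% and none for Gabra6 and 43.0% and 1 TATA box for Gabra3. The median over 32851 promoter windows of the mouse was 52.7% G and C, and 35.7% of them held a GC box and 13.6% a TATA box. Of the other 7 windows, the first of Gabrb2 held 1 motif of each kind and the second of Gabra3, which overlaps the printed one, held the same TATA box. The windows of Gabrg1 and Gabrb1 held neither motif.

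The check of the labels came before the subunits. The intensity of Fmr1, on the linear scale of the arrays, was 142 to 306 in Fmr1-KO cerebellum, against 832 to 917 in WT cerebellum, and Tsc2 was 713 to 999.5 in Tsc2+/- cerebellum, against 1109.6 to 1176 in WT cerebellum. Groups that do not overlap, as for Tsc2 here, were seen for 10.3% of all probe sets in Tsc2+/- against WT cerebellum. By quantitative RT-PCR in brain the authors found a decrease of Tsc2 that was not significant. In blood Fmr1 was 169 to 263 in Fmr1-KO mice, against 335 to 659.8 in WT mice, while Tsc2 overlapped, with 621 to 889.8 in Tsc2+/- mice, against 731 to 1008 in WT mice, so the Tsc2 label was not borne out by level in blood. The cerebellum was marked by the granule cell list, whose 10 genes summed to 43662 to 59331 over the 16 arrays, and the leukocyte list of 5 genes summed to 188 to 435 there. The cerebellum array of Fmr1-KO mouse 1 stood apart, with a correlation of 0.898 with the mean of the other arrays of its group where the other 4 had 0.981 to 0.983, and WT mouse 1 of the same experiment had 0.956 where its group had 0.988 to 0.993. Genotype differences of the 7 subunits in cerebellum of the Fmr1 experiment are therefore also given without both number 1 mice. Among blood arrays, the 2 platelet genes summed to 1803 in Tsc2+/- mouse 2 and 1247 in WT mouse 3 of the Tsc2 experiment, against 15027 to 21990 in the other 4 mice, and that WT array had the lowest correlation with its group in blood, 0.946. Gabrd in Tsc2 blood is given with and without these 2 mice. The 4 choroid plexus genes summed to 806 to 15236 in Tsc2+/- cerebellum and 577 to 14500.4 in WT cerebellum, a wider range than in the Fmr1 experiment, where it was 13461 to 18709 in Fmr1-KO cerebellum and 13823 to 18308 in WT cerebellum.

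All 7 subunits were higher in cerebellum than in blood in both experiments. At an adjusted p under 0.05 in limma, fitted over all 35556 probe sets with Benjamini-Hochberg adjustment, the count was 7 of 7 in each experiment, where 51.8% of all probe sets were called higher in the Fmr1 experiment and 31% for Tsc2. Of the probe sets called in either direction, 72.1% were higher in cerebellum in the Fmr1 experiment and 54% for Tsc2, against 46.4% and 40.7% once each array was centred on its median, and the median difference of all probe sets was 0.52 and 0.03 before centring. All 7 subunits were higher under either scaling. For each of the 7 the lowest cerebellum value lay above the highest blood value of its experiment, as it did for 27.6% and 23.6% of all probe sets. Blood gave 6 of the subunits no signal above background. Their values lay under the 95th percentile of 1023 probe sets for olfactory receptors, genes that these tissues hardly express, on all 16 blood arrays. In cerebellum they exceeded it on 15 of 16 arrays for Gabra2, Gabra3 and Gabrg1 and on all 16 for the rest, so that only a lower bound of the difference can be given. The array on which these genes fell short was that of Fmr1-KO mouse 1. Its percentile was 578, against 138 to 272 on the other cerebellum arrays, and its values enter the bounds.

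Gabra6 ranged from 3774 to 6506 over the 16 cerebellum arrays and from 0.144 to 79.5 over the 16 blood arrays, and no array of one tissue came near the other. Taking the blood level at the olfactory percentile of each array (165 to 279), Gabra6 was at least 21.7-fold higher in cerebellum than in blood in the Fmr1 experiment. In the Tsc2 experiment it was at least 24.9-fold higher. These bounds were not tested. The limma fits, which use the blood values as measured, gave Gabra6 an adjusted p of 1.63e-09 and 6.25e-08. For Gabrb2 the bounds were 13.5-fold and 16.4-fold, and the limma fits gave an adjusted p of 2.73e-13 and 2.68e-07. The remaining 4 subunits had lower bounds, from 1.71-fold for Gabra2 to 4.05-fold for Gabrb1 in the Fmr1 experiment and from 3.62-fold for Gabrg1 to 5.32-fold for Gabrb1 in the Tsc2 experiment. Their highest blood value was 86.9, that of Gabra3 in a Tsc2+/- mouse.

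Gabrd differed from the rest in blood. Its intensity exceeded the olfactory percentile on all 16 blood arrays, with 280.0, 379, 426, 282 and 321 in Fmr1-KO blood and 268, 296, 252, 265 and 309 in WT blood, and 262, 221 and 254 in Tsc2+/- blood and 304, 239 and 225 in WT blood. The genotype groups overlapped in both experiments. The log2 difference was 0.26 (SE 0.14, 95% interval -0.05 to 0.58) for Fmr1-KO against WT blood and -0.05 (SE 0.18, interval -0.49 to 0.39) for Tsc2+/- against WT blood, with adjusted p = 0.955 and 1.00. Without Tsc2+/- mouse 2 and WT mouse 3 the Tsc2 value was -0.06 (SE 0.20), and with any 1 mouse left out it ran from -0.14 to 0.08. Of the 7 subunits 0 were called in blood, where 0.00844% of all probe sets were called in the Fmr1 experiment and 0% for Tsc2. In both experiments 0 had an unadjusted p under 0.05 in limma or in the test without moderation. Between WT blood of the Tsc2 experiment and WT blood of the Fmr1 experiment Gabrd differed by -0.13 (SE 0.15, interval -0.47 to 0.21), or -0.04 without WT mouse 3 of the Tsc2 experiment, and 0 of 7 subunits were called, where 0.132% of all probe sets were. In cerebellum Gabrd ranged from 3841 to 8654. It was 21.7-fold higher in cerebellum than in blood in the Fmr1 experiment (log2 difference 4.44, SE 0.14, n = 10 arrays for each tissue, adjusted p = 6.35e-16) and 28.5-fold higher in the Tsc2 experiment (4.84, SE 0.09, n = 6 for each tissue, adjusted p = 1.17e-11, and 4.78 without Tsc2+/- mouse 2 and WT mouse 3).

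**Figure D1:**
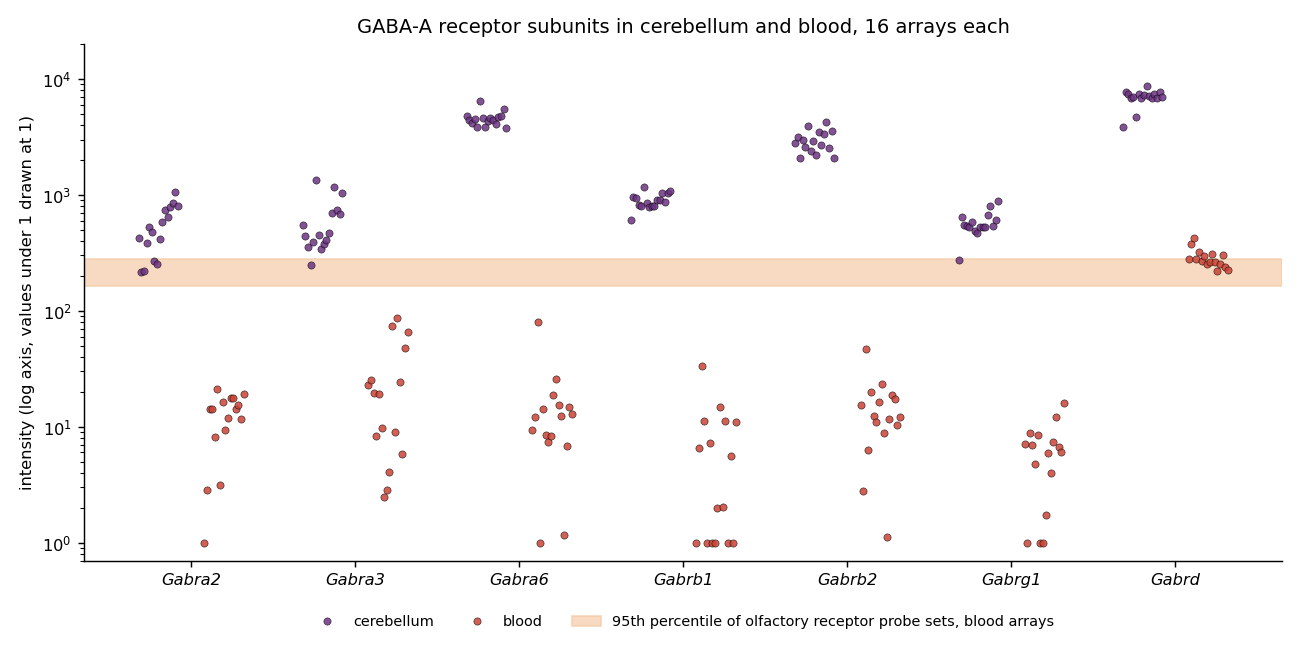
Intensity of the 7 subunits on the 16 cerebellum arrays (left of each pair) and the 16 blood arrays (right), on a log axis with values under 1 drawn at 1. The band spans the 95th percentile of olfactory receptor probe sets on the blood arrays, 165 to 279, and only Gabrd has blood values, 221 to 426, that reach into or above it.

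Loss of Fmr1 was followed by no called change of a subunit in cerebellum. All 7 log2 differences of Fmr1-KO against WT cerebellum were below 0, from -0.38 to -0.08 with a median of -0.11, against a median of 0.02 over all probe sets. None of the 7 was called at an adjusted p under 0.05, where 0% of all probe sets were called. An unadjusted p under 0.05 was reached by 0 of the 7 in limma or in the test without moderation. No subunit separated the genotypes, as 0.357% of all probe sets did. The arrays measured whole tissue, where fewer cells of a type and less RNA per cell cannot be told apart.

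Among the alpha subunits, Gabra6 had intensities of 4738, 4426, 4197, 4464 and 3841 in Fmr1-KO cerebellum and 6506, 4616, 3825, 4308 and 4610.5 in WT cerebellum, in the order of mouse numbers. The groups overlapped, and WT mouse 1 was the highest of all. The log2 difference was -0.12 (SE 0.15, 95% interval -0.44 to 0.20) and -0.035 without both number 1 mice.

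Gabra2 read 424, 216, 219, 386 and 527 in Fmr1-KO cerebellum and 475, 266, 254, 414 and 582 in WT cerebellum. Within each genotype mice 2 and 3 were low and the other 3 high, so the spread inside a group, with a coefficient of variation of 38.1% in Fmr1-KO mice and 35.1% in WT mice, exceeded the difference between them (log2 difference -0.19, SE 0.32, interval -0.89 to 0.52), which was also -0.19 without both number 1 mice. The number of a mouse is not stated to pair animals. Gabra3 read 551, 439, 353, 249.7 and 393 in Fmr1-KO cerebellum and 1340.1, 450.2, 344, 374 and 411 in WT cerebellum. Apart from the value of WT mouse 1 the groups overlapped throughout. The Gabra2 and Gabra3 values of Fmr1-KO mouse 1, 424 and 551, lay under the olfactory percentile of its own array, 578. The log2 difference of Gabra3 was -0.38 (SE 0.37, interval -1.20 to 0.43) with all mice and -0.16 (SE 0.18) without both number 1 mice.

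For the beta subunits, Gabrb2 had 2820.5, 3156, 2066, 2998 and 2578 in Fmr1-KO cerebellum and 3919, 2401, 2887, 2194 and 3516 in WT cerebellum, with no order between the groups. Its log2 difference was -0.11 (SE 0.19, interval -0.53 to 0.30) with all mice and -0.02 (SE 0.19) without both number 1 mice. Gabrb1 had 612, 954, 929.8, 815 and 795 in Fmr1-KO cerebellum and 1169, 849, 783, 807 and 799.6 in WT cerebellum. The lowest and the highest of the 10 values were those of the number 1 mice. The log2 difference of Gabrb1 was -0.10 (SE 0.16) with them and 0.11 (SE 0.083) without them.

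The gamma and delta subunits also overlapped between genotypes. Gabrg1 read 275, 650.0, 549, 535 and 524 in Fmr1-KO cerebellum and 585, 488, 465, 524 and 524 in WT cerebellum. Its log2 difference of -0.08 (SE 0.21, interval -0.55 to 0.38) rested on Fmr1-KO mouse 1, since it was 0.12 without that mouse and 0.17 (SE 0.091, adjusted p = 0.995) without both number 1 mice. The Gabrg1 value of Fmr1-KO mouse 1, 275, lay under the olfactory percentile of its own array, 578. Gabrd read 3841, 7753, 7349, 6885 and 6925 in Fmr1-KO cerebellum and 4728, 7356, 6867, 7274 and 8654 in WT cerebellum, and mouse 1 was the lowest of each group. The log2 difference of Gabrd was -0.11 (SE 0.22, interval -0.60 to 0.39) with all mice and -0.057 (SE 0.091) without both number 1 mice. Over both tissues in 1 fit Gabrd differed by 0.08 (SE 0.14) between Fmr1-KO and WT mice, where 0.00281% of all probe sets were called, and by -0.03 (SE 0.094) between Tsc2+/- and WT mice, where 0% were. Its genotype difference in cerebellum minus that in blood was -0.37 (SE 0.27, adjusted p = 0.993) for Fmr1-KO, where 0.00844% of all probe sets were called, and 0.05 (SE 0.20, adjusted p = 1.00) for Tsc2+/-, where 0.00562% were. The other 6 subunits were not above background in blood, so no such difference is given for them.

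**Figure D2:**
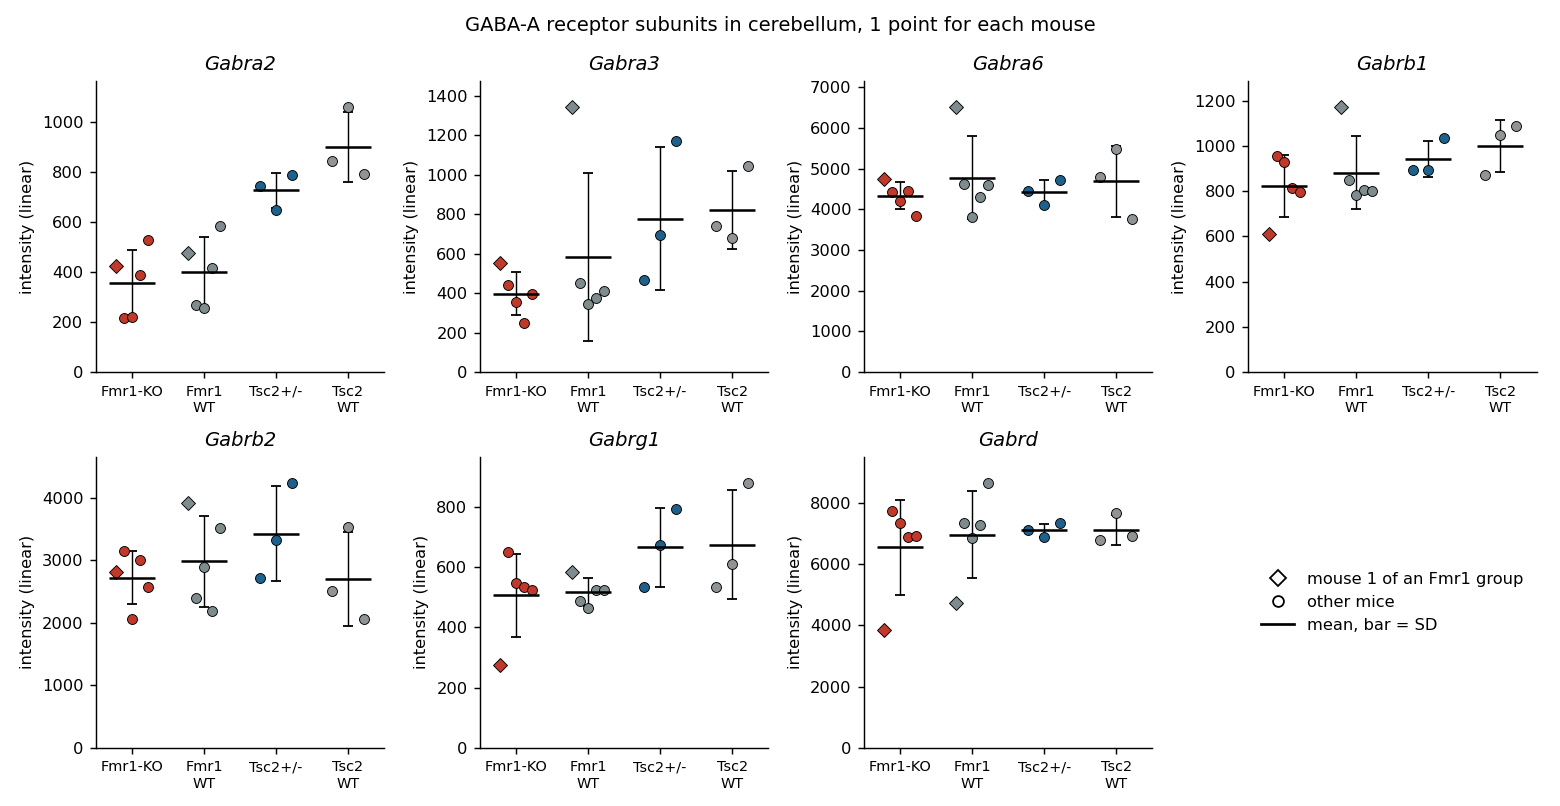
Linear intensity of the 7 subunits in cerebellum, 1 point for each mouse, in Fmr1-KO and WT mice (n = 5 each) and in Tsc2+/- and WT mice (n = 3 each), with the mean and SD of each group. Diamonds are the number 1 mice of the Fmr1 experiment, which give Gabra3 its highest value, 1340.1, and Gabrd its lowest, 3841, while for Gabra2 all 6 mice of the Tsc2 experiment lie above all 10 of the Fmr1 experiment.

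In the Tsc2 experiment 0 of the 7 subunits were called in cerebellum, where 0.0253% of all probe sets were called, and 0 had an unadjusted p under 0.05 in limma or without moderation. The log2 differences of Tsc2+/- against WT cerebellum ran from -0.30 for Gabra2 to 0.36 for Gabrb2, and 6 of 7 were below 0 (median -0.07, against -0.02 over all probe sets). Gabra2 was the single subunit whose groups did not overlap, with 743, 649 and 786 in Tsc2+/- cerebellum and 844, 1058 and 793 in WT cerebellum. Such a separation was seen for 10.3% of all probe sets in this comparison of 3 mice with 3. The nearest values, 786 and 793, were close together. The log2 difference of Gabra2 was -0.30 (SE 0.16, interval -0.68 to 0.08, adjusted p = 0.926).

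Gabrb2 read 2715, 3331 and 4234 in Tsc2+/- cerebellum and 2509.7, 3526 and 2061 in WT cerebellum, with overlap. Its log2 difference was 0.36 (SE 0.25, interval -0.26 to 0.97, adjusted p = 0.926) at probe set 10375261, which the rule chose. Gabrb2 is the one subunit with further probe sets of its own, and these gave other values. Probe set 10375245 spanned 3627 to 4006 in Tsc2+/- animals, with 3816 to 4969 in WT animals, a log2 difference of -0.22 (SE 0.14). Probe set 10375259 spanned 1634 to 2057 in Tsc2+/- animals, with 1391 to 1970.4 in WT animals, a difference of 0.12 (SE 0.17). The direction for Gabrb2 thus depended on the probe set. In the Fmr1 experiment all 3 were below 0, at -0.11, -0.13 and -0.17.

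The granule cell pair overlapped between the genotypes. Gabrd read 7108, 6908 and 7337 in Tsc2+/- cerebellum and 6793, 7685 and 6914 in WT cerebellum, and its interval was the narrowest of the 7, with a log2 difference of -0.00085 (SE 0.11, interval -0.27 to 0.27). Gabra6 read 4445, 4109.7 and 4718 in Tsc2+/- cerebellum and 4793, 5493 and 3774 in WT cerebellum (log2 difference -0.07, SE 0.17, interval -0.48 to 0.34). The summed granule cell markers were 47326 to 51898 in Tsc2+/- cerebellum and 47460 to 57513 in WT cerebellum.

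Gabra3, Gabrb1 and Gabrg1 overlapped between the genotypes as well. Gabra3 read 465, 693 and 1172 in Tsc2+/- cerebellum and 738, 679 and 1045 in WT cerebellum, and Gabrg1 read 533, 673 and 794 in Tsc2+/- cerebellum and 533, 612 and 880.0 in WT cerebellum. In each genotype mouse 3 had the highest value of both genes. The log2 differences were -0.16 (SE 0.36, interval -1.02 to 0.71) for Gabra3, -0.0040 (SE 0.24, interval -0.58 to 0.58) for Gabrg1 and -0.08 (SE 0.14, interval -0.42 to 0.25) for Gabrb1, which spanned 894 to 1035 in Tsc2+/- animals, with 869.5 to 1086 in WT animals. The same mice also had the highest summed oligodendrocyte markers, 44090 of 30773 to 44090 in Tsc2+/- cerebellum and 50875 of 33916 to 50875 in WT cerebellum. Whether tissue make-up had a part in these values was not tested.

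**Figure D3:**
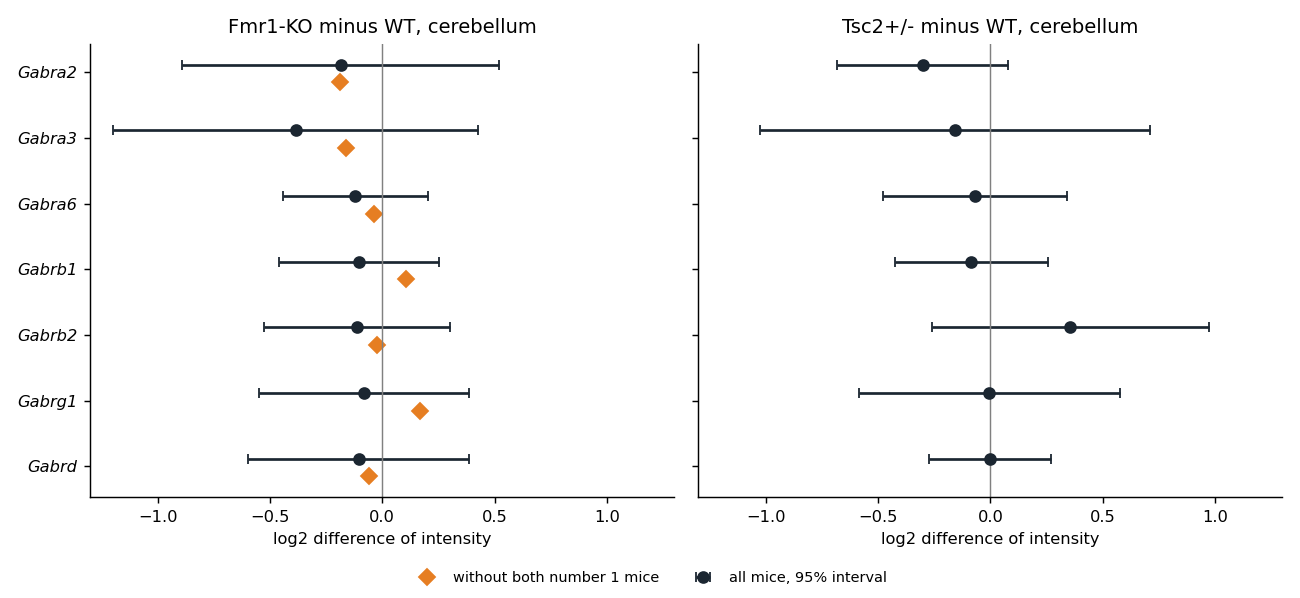
Log2 difference of intensity in cerebellum for the 7 subunits, Fmr1-KO minus WT (left) and Tsc2+/- minus WT (right), with 95% intervals from limma. Every interval spans 0, and without both number 1 mice (diamonds) Gabrb1 and Gabrg1 of the Fmr1 experiment move to 0.11 and 0.17, above 0.

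The 2 models were also compared directly, by the Fmr1-KO difference minus the Tsc2+/- difference in cerebellum. For 0 of the 7 subunits was this called, where 0.00844% of all probe sets were, and 0 had an unadjusted p under 0.05. The value furthest from 0 was that of Gabrb2, -0.47 (SE 0.32, interval -1.16 to 0.22) and -0.38 without both number 1 mice. The direction for Gabrb2 again depended on the probe set, with 0.09 (SE 0.15) at 10375245 and -0.28 (SE 0.37) at 10375259. For Gabra2, with a negative difference in each model, the value was 0.12 (SE 0.45, interval -0.85 to 1.08), and the remaining 5 lay between -0.23 for Gabra3 and -0.02 for Gabrb1.

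The largest contrast of a subunit within cerebellum lay between the experiments. WT cerebellum of the Tsc2 experiment, from the mixed background, had Gabra2 at 844, 1058 and 793, against 475, 266, 254, 414 and 582 in WT cerebellum of the Fmr1 experiment, from the C57BL/6 congenic background. The groups did not overlap, as was the case for 4.98% of all probe sets, and Gabra2 was the only subunit of the 7 with this separation. The log2 difference was 1.24 (SE 0.29, 95% interval 0.57 to 1.90), a 2.35-fold higher level in the Tsc2 experiment, and 0.548% of all probe sets had a larger one. It ranked 107 of 35556 by p in limma and had an unadjusted p under 0.01, as did 1.29% of probe sets, but did not pass the adjustment (adjusted p = 0.558). At an adjusted p under 0.05 the count of subunits was 0 of 7, where 0.00562% of all probe sets were called.

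The mutant mice carried the same gap, with Gabra2 at 649 to 786 in Tsc2+/- cerebellum and 216 to 527 in Fmr1-KO cerebellum. Background strain and experiment cannot be told apart here. Leaving out any 1 mouse kept the Gabra2 difference of the WT groups between 1.09 and 1.39, with 1.32 once number 1 of the Fmr1 WT mice was left out. In a fit of all 32 arrays together, which takes 1 spread from both tissues, the SE was 1.16 and the adjusted p 1.00. In the same comparison 0 genes of the marker lists were called. The oligodendrocyte list was above 0 for 4 of 4 genes (median 0.43), the list of molecular layer interneurons and Golgi cells for 5 of 5 (median 0.24) and the choroid plexus list for 0 of 4 (median -1.63), against 44.1% of all probe sets. The summed oligodendrocyte genes were 33916 to 50875 in WT cerebellum of the Tsc2 experiment and 26502 to 39286 in that of the Fmr1 experiment. The part of these lists in the Gabra2 difference was not tested. Chromosome 5 neighbours of Gabra2 gave smaller differences, 0.36 (SE 0.17, interval -0.04 to 0.75) for Gabrg1 and 0.19 (SE 0.16, interval -0.18 to 0.56) for Gabrb1. Gabra3 stood at 0.68 (SE 0.43, interval -0.31 to 1.67), and at 1.04 (SE 0.17, adjusted p = 0.262) once number 1 of the Fmr1 WT mice, its highest value, was left out, while Gabra6, Gabrb2 and Gabrd lay between -0.15 and 0.06.

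**Figure D4:**
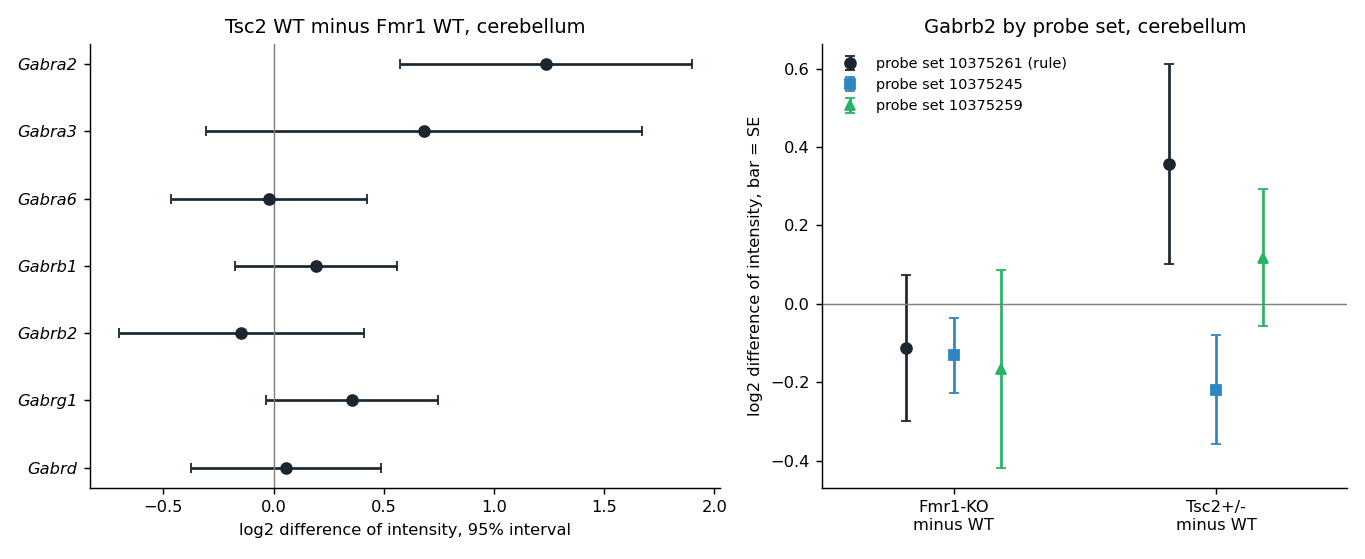
Left, log2 difference of intensity between the WT cerebellum groups, Tsc2 experiment minus Fmr1 experiment, with 95% intervals, where with all mice Gabra2 at 1.24 is the only subunit whose interval lies above 0. Right, genotype differences of Gabrb2 at its 3 probe sets, with SE, which in Tsc2+/- cerebellum are 0.36, -0.22 and 0.12.

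Variation of the subunits from mouse to mouse was described by Pearson correlations of log2 values, each as a deviation from its group's mean, over the 16 cerebellum arrays. Points that share an array share its RNA and its normalization. Gabrb1 and Gabrg1, which lie on the same chromosome, correlated at 0.80, and at 0.74 over the 14 arrays without both number 1 mice. Gabra6 and Gabrb2, neighbours on chromosome 11, correlated at 0.66, and at 0.56 over 14 arrays. For Gabra6 and Gabrd, which assemble into the same receptors, the value was -0.44 over 16 arrays and 0.58 over 14, and for Gabra3 and Gabrg1 it was 0.19 and 0.77, so these values turned on the number 1 mice. Gabra2 correlated with none of the other 6 above 0.39.

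Set beside the mean log2 level of marker lists in the same way, Gabra6 had 0.85 with the granule cell list (0.75 over 14 arrays), but also 0.74 with the Purkinje cell list (0.74) and 0.69 with the list of Bergmann glia and astrocytes (0.60), so no single list stood out. Gabrd, the other granule cell subunit, had -0.39 with the granule cell list and 0.26 over 14 arrays. Gabrb2 had 0.89 and 0.88 with the Purkinje cell list, but also -0.78 and -0.82 with the red cell list and 0.48 and 0.80 with the platelet list. Gabrg1 moved with the oligodendrocyte list (0.67 and 0.93) and with that of molecular layer interneurons and Golgi cells (0.74 and 0.92), and Gabra3 likewise (0.79 and 0.81 with oligodendrocytes, 0.74 and 0.81 with the interneurons). Gabra2 had 0.22 and 0.06 with the granule cell list and -0.16 and -0.35 with the oligodendrocyte list. The blood cell lists, far lower in cerebellum than in blood, gave values of similar size for other subunits too. Gabra6 had -0.16 and -0.81 with the leukocyte list, and Gabrd 0.08 and -0.77 with the red cell list. A high value therefore does not by itself mark a cell type.

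Across all gene-named probe sets, the 3 closest to Gabra6 were Psg16 (0.95), Slc1a3 (0.95), the glutamate transporter of Bergmann glia, and Sphkap (0.95). The closest to Gabra3 were Mbp (0.95), which encodes myelin basic protein, Tmem196 (0.95) and Ube2v1 (0.95). Those of Gabrg1 were Ppp2r2b (0.98), a regulatory subunit of protein phosphatase, Skap2 (0.97) and Rnf14 (0.97). Over the 14 arrays without both number 1 mice these first-ranked partners had 0.90 for Psg16, 0.87 for Mbp and 0.96 for Ppp2r2b, where they ranked 12, 35 and 23, so the order turned on those mice.

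Stk11 (0.97), Mpzl1 (0.96) and Slc1a6 (0.96), the glutamate transporter of Purkinje cells, were the closest to Gabrd, but over 14 arrays their values were 0.82, 0.66 and 0.72. Gabrb1 was closest to Tmem185a (0.97), Grsf1 (0.97) and Tmem74 (0.96), which ranked 136, 126 and 29 over 14 arrays, and Gabrb2 to Iltifb (0.92), Nkain4 (0.92) and Tma7 (0.90). Gabra2 had lower values than the rest, with Chst9 (0.85), Txnrd2 (0.81) and Wdfy1 (0.81), which were 0.87, 0.86 and 0.86 over 14 arrays. With so many probe sets and so few arrays, high values arise for some partner of almost any gene.

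In the wider GABA system no gene was called by genotype in cerebellum either. Of 55 further genes in 6 lists, namely 9 other GABA-A subunits, 20 genes of receptor anchoring, assembly and trafficking, 7 of GABA synthesis, packaging, uptake and breakdown, 8 of chloride and bicarbonate handling, 6 of the GABA-B receptor and 5 of the glycine receptor, 0 were called in Fmr1-KO cerebellum (0% of all probe sets) and 0 in Tsc2+/- cerebellum (0.0253%), and 0 had an unadjusted p under 0.05 in either. Their differences were above 0 for 17 of 55 in Fmr1-KO cerebellum (median -0.10), against 53.8% of all probe sets (median 0.02), and for 18 of 55 in Tsc2+/- cerebellum (median -0.06), against 45.7% (median -0.02). The Fmr1-KO count includes both number 1 mice and was not recomputed without them, so its lean cannot be set apart from those arrays. In blood 0 of 55 were called in either model. The differences there were above 0 for 21 of 55 in Fmr1-KO blood (median -0.08), against 37.2% of all probe sets, with 0 at an unadjusted p under 0.05, and for 34 of 55 in Tsc2+/- blood (median 0.07), against 57.1%, with 2 under that limit. Between tissues the other subunits went both ways. In the Fmr1 experiment 4 of the 9 were called higher in cerebellum and 2 lower, where 51.8% and 20% of all probe sets were, and for Tsc2 4 were higher and 1 lower, where 31% and 26.4% were. Gabra4, the alpha 4 subunit and another chromosome 5 neighbour, had a median of 531 in Fmr1-KO cerebellum and 573 in WT cerebellum, and of 578 in Tsc2+/- cerebellum and 626 in WT cerebellum, and exceeded the olfactory percentile on 15 of 16 cerebellum arrays and on 0 of 16 blood arrays. The remaining 8 did so on at most 4 cerebellum arrays, that count being the one of Gabra5. Of the genes for GABA synthesis, packaging, uptake and breakdown 7 of 7 were called higher in cerebellum in both experiments, and of those for anchoring, assembly and trafficking 16 of 20 were higher and 4 lower.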

How the data were processed

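The deposited table holds linear intensities of 35556 probe sets on 32 Affymetrix Mouse Gene ST arrays. The authors quantile normalized all arrays together at the probe level and summarized each probe set with the PLIER model in Affymetrix Power Tools, whose versions and genome build are not given in the sources used here. Normalizing blood and cerebellum together forces equal distributions on unlike tissues. Of the values, 4.06% in cerebellum and 8.35% in blood lay under 16, where small differences become large on the log2 scale.

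Groups came from the deposited labels. Of the probe sets, 21789 have 1 gene symbol, 1621 several and 12146 none. Log2 intensities, with no offset, were fitted with lmFit and eBayes of limma 3.58.1 in R 4.3.3, by genotype within a tissue, by tissue and genotype over both, with an interaction term between tissues or models, and between WT groups. Fits over both tissues count a mouse's 2 arrays as independent. P-values are two-sided, adjusted by Benjamini-Hochberg over all probe sets, and called under 0.05. In fits of 1 tissue these p-values measure the spread between mice. In fits over both tissues, which have no term for the mouse, spread within and between mice is mixed. The authors' methods fit tissue and genotype together and use an unadjusted p under 0.01. That is the fit over both tissues here, and fits within a tissue have no tissue term. The fit was tested on simulated data.

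Where a subunit did not exceed the 95th percentile of olfactory receptor probe sets on any blood array, the fold was computed as a bound, as the mean cerebellum log2 value minus the mean of that percentile over blood arrays. Only this bound replaces the fitted difference. The bound was not tested, and the adjusted p of these subunits between tissues is that of the fitted difference.

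The 7 genes, the gene lists and the tests were chosen with earlier results of these data known. Genes named are the 7, those of the lists past the adjusted threshold in a genotype comparison or, up to 2 per list in cerebellum, under an unadjusted 0.01 (none met either), the 3 closest to each subunit, and Fmr1 and Tsc2. Xist, Kdm5d, Gabra4 and Gabra5 were named after their values were seen. Alternatives were 16 added before log2, quantile normalization again within tissue, centring arrays on their median, a minimum mean log2 of 6, eBayes with trend and robust, a test without moderation, a replicate block, all 32 arrays in 1 fit, other probe sets and leaving out each mouse. The test without moderation was Welch's t-test for genotype within a tissue and between WT groups, and the same linear model for the other fits. Leaving out both number 1 mice of the Fmr1 experiment, and Tsc2+/- mouse 2 with WT mouse 3 of the Tsc2 experiment, was chosen after seeing the data.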

Additional observations from a re-analysis of the deposited data

Results flagged for a closer look

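Of 28 sets of 5 mice, 7 subunits in each of 4 groups of the Fmr1 experiment, 5 held a mouse whose gap to its nearest neighbour took up more of the group's range than Dixon's 95% limit of 0.710 allows. Chance gives about 1 in 20. Of these, 3 came from the number 1 mice in cerebellum. Gabra3 was 1340.1 in WT mouse 1, Gabrb1 was 1169 in WT mouse 1 and Gabrd was 3841 in Fmr1-KO mouse 1, the lowest of its group. The other 2 lay under the olfactory percentile in blood, with Gabra6 at 79.5 in Fmr1-KO mouse 3 and Gabra3 at 73.8 in WT mouse 5. No genotype difference of a subunit differed between tissues or models at an adjusted p under 0.05. Between tissues this can be read for Gabrd only, since the other subunits were not above background in blood.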

How the results depend on the processing

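The count of called subunits was unchanged in 218 of 220 recomputed counts. It stayed at 0 in every genotype and WT comparison, and fell to 4 of 7 between tissues in each experiment with a minimum mean log2 of 6, which Gabra2, Gabrb1 and Gabrg1 do not reach, so 4 were tested. Log2 differences were recomputed by genotype in cerebellum, between tissues in each experiment and between the WT cerebellum groups. Of these 562, 24 changed sign and none changed its call. The other comparisons, those in blood among them, are not in this total. In Fmr1-KO against WT cerebellum, without both number 1 mice, Gabrb1 was 0.11 and Gabrg1 0.17, and with 1 mouse left out Gabrb1 ran from -0.16 to 0.0034, Gabrg1 from -0.19 to 0.12 and Gabrd from -0.24 to 0.077. In Tsc2+/- against WT cerebellum, Gabrg1 was 0.036 after quantile normalization within tissue and 0.022 with centred arrays, Gabrd was 0.025 with centred arrays and Gabrb2 was -0.22 at probe set 10375245, 1 of its 2 others. With 1 mouse left out, Gabra3 ran from -0.50 to 0.16, Gabra6 from -0.22 to 0.055, Gabrg1 from -0.16 to 0.20 and Gabrd from -0.035 to 0.054. Between the WT cerebellum groups, Gabra6 was 0.084 with centred arrays and 0.098 without the number 1 mouse, Gabrd -0.077 without it and Gabrb2 0.11 at probe set 10375245. With 1 mouse left out, Gabra6 ran from -0.14 to 0.13, Gabrb2 from -0.36 to 0.031 and Gabrd from -0.077 to 0.14. The causes were not tested.

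Mice share numbers across genotypes, and with so few mice these values cannot settle whether the numbers pair animals. Deviations of same-numbered mice correlated at -0.04 to 0.31 in Fmr1 cerebellum (median 0.03) and -0.18 to 0.42 in Tsc2 cerebellum (median 0.36). Mice with other numbers had -0.41 to 0.37 (median 0.001) and -0.51 to 0.17 (median -0.002). In cerebellum 1 of 5 Fmr1-KO and 2 of 3 Tsc2+/- mice correlated best with their own number. With the number as a replicate block, Gabra2 in Fmr1-KO cerebellum kept its difference of -0.19 with an SE of 0.11 in place of 0.32 (adjusted p = 0.988), and 0 of 7 subunits were called. Over all probe sets the count of calls in Tsc2+/- cerebellum was 9, against 6 with the block, 0 to 7 over other settings and 0 to 9 with 1 mouse left out. It was 0 (0 to 1) in Fmr1-KO cerebellum, 3 (0 to 80) in Fmr1-KO blood, 0 (0 to 5) in Tsc2+/- blood, 2 (0 to 14) between the WT cerebellum groups and 47 (9 to 8602 over settings, 7 to 2324 with 1 mouse left out) between the WT blood groups. The groups of 3 mice and the dim blood signals limit precision.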
